A study of Homo sapiens with 6 samples.

Results

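The LIM homeobox factors are a family of transcription factor genes, and 10 of them were taken by symbol from the deposited table of 23615 genes: LHX1, LHX2, LHX5, LHX6, LHX8, LHX9, ISL1, ISL2, LMX1A and LMX1B. The table came from H1 cells, an established human embryonic stem cell (hESC) line, that were specified toward ectoderm. Colonies received 0.5 nM BMP-4 for 3 days, and from day 4 to day 10 medium with 10% fetal calf serum. Either 5 μM DAPT or its ethanol vehicle was present throughout, so that DAPT was the intended difference between the groups. No culture or sequencing batch is given in the labels or methods. DAPT inhibits γ-secretase, the protease complex that releases the Notch intracellular domain. Poly-A RNA harvested at day 10 gave 3 libraries with DAPT and 3 with ethanol. The labels do not say whether these libraries came from separate cultures.

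A LIM homeobox factor carries a pair of LIM domains, which bind partner proteins, and a homeodomain, which binds DNA. The LIM domains bind the adaptor LDB1, which joins LIM homeobox factors to each other and to other transcription factors, while LIM-only proteins compete for the same adaptor. In vertebrate embryos these genes are known as markers and regulators of regional identity in the head organizer, forebrain, eye, heart field, limb, kidney, gonad and spinal cord.

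Expression was given as FPKM, the number of fragments mapped to a gene scaled by its transcript length and by all mapped fragments, with 1 value per gene for each treatment over its 3 libraries. Because of the scaling by length, levels can also be set beside each other between genes. No value per library was in the table, so no SD, interval or p-value is given and a difference could not be compared with the spread between libraries. The depth of the libraries is unknown. Differences are log2 fold changes of DAPT over ethanol after 0.1 FPKM was added to each value, and a gene is counted as higher or lower where it differed at least 2-fold on that scale. The 2 sheets of the table held equal values but exchanged the names of the treatments. The names in the sheet of changed genes were followed, and under the other naming every direction given here would be reversed. Under the names followed, TFAP2A was at 21.8 FPKM under DAPT and 7.10 FPKM under ethanol, and POU5F1 at 47.3 and 240 FPKM. The paper reports the same directions for both genes by qRT-PCR. In bulk RNA, fewer cells of a type and less RNA per cell cannot be told apart.

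Both treatments had LIM homeobox mRNA at similar summed levels, but different genes made it up. The 10 genes summed to 20.8 FPKM under DAPT and 18.1 FPKM under ethanol. LHX1 was the most abundant member with ethanol at 5.78 FPKM, followed by ISL1, LHX2, LHX8 and LHX5, all above 1 FPKM. With DAPT only ISL1, LHX2 and LHX5 were above 1 FPKM, and LHX1 was sixth in order. LHX1 made up 31.9% of the summed FPKM with ethanol and 2.47% with DAPT, whereas ISL1 made up 28.9% with ethanol and 58.2% with DAPT. LHX2 held a similar share under both, 16.9% with ethanol and 15.5% with DAPT. The members at the bottom of the order also differed, since LMX1A and LMX1B were lowest with ethanol and LHX6 and ISL2 with DAPT. Without values per library, it cannot be said which neighbours in either order differ beyond their spread.

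**Figure D1:**
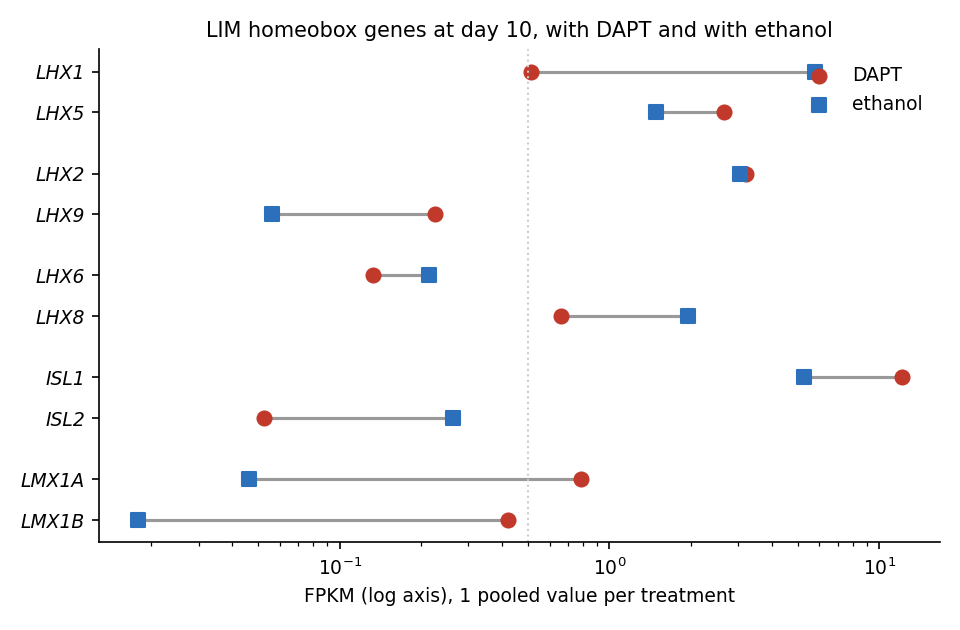
FPKM (log axis) of the 10 LIM homeobox genes with DAPT and with ethanol at day 10, each point 1 value over 3 libraries, with a dotted line at 0.5 FPKM, the mean level from which genes are compared as a group. LHX1 stood at 0.512 FPKM under DAPT and 5.78 FPKM under ethanol, and the LMX1A and LMX1B points were separated in the opposite direction.

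**Figure D2:**
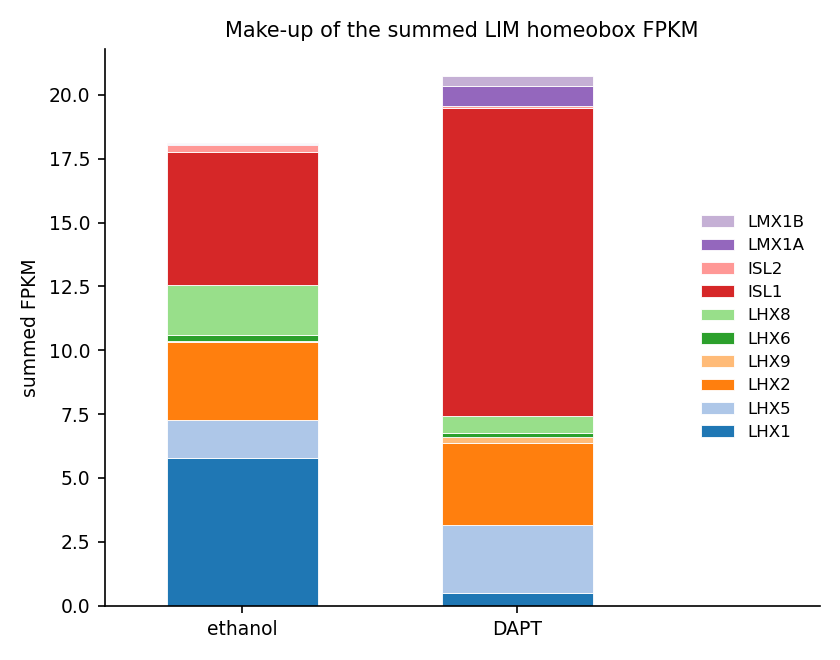
Make-up of the summed FPKM of the 10 genes under each treatment, with the height of each bar segment giving the FPKM of a gene. The bars reach 20.8 FPKM under DAPT and 18.1 FPKM under ethanol, and the LHX1 and ISL1 segments differ most.

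Of the 10 genes, 4 were at least 2-fold higher with DAPT (ISL1, LMX1A, LMX1B and LHX9) and 3 were at least 2-fold lower (LHX1, LHX8 and ISL2). Among the 20407 genes of the table above 0 in a treatment, 4.55% were higher and 5.4% were lower. LHX2, LHX5 and LHX6 stayed inside 2-fold. With 1 FPKM added in place of 0.1, LHX8, LHX9, ISL2, LMX1A and LMX1B were also inside 2-fold, which left ISL1 higher and LHX1 lower. The members' median log2 fold change was 0.43, against -0.01 over all these genes, whose quartiles were -0.29 and 0.26. The level of expression divided the members evenly. LHX1, LHX2, LHX5, LHX8 and ISL1 had a mean of at least 0.5 FPKM over both treatments, and 1 of these 5 was higher and 2 were lower. Of all 14388 genes at that level, 4.9% were higher and 5.47% were lower. These include 110 genes listed at 0 in 1 treatment, and no member was among them. The other 5 members had means between 0.1 and 0.5 FPKM, where 3 were higher and 1 was lower. Of all 2574 genes in that range, 7.69% were higher and 10.9% were lower. A gene can enter this range through 1 treatment alone. That was so for LHX9, ISL2, LMX1A and LMX1B, each under 0.1 FPKM in the other treatment, so their counts here only describe. The authors' table marked LHX6, LHX9 and ISL2 as having too little signal to be tested, and the other 7 as tested.

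**Figure D3:**
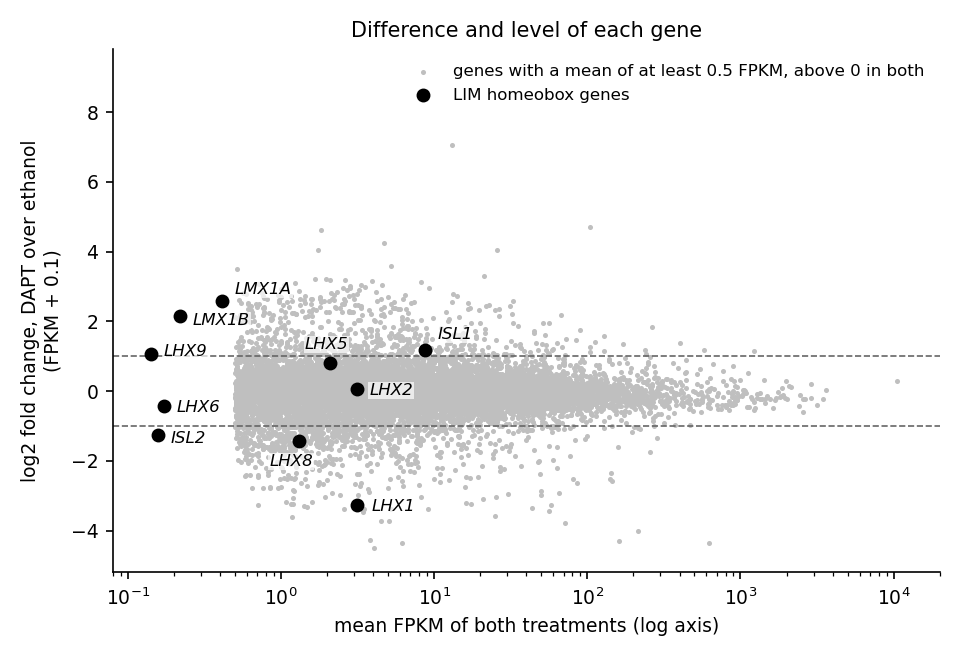
Log2 fold change (DAPT over ethanol, FPKM + 0.1) against mean FPKM of both treatments (log axis) for the 10 LIM homeobox genes (black) and 14278 genes with a mean of at least 0.5 FPKM and above 0 under both treatments (grey). Dashed lines mark 2-fold, and LHX1, at -3.26, lies near the lower edge of the genes at its level.

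LHX1 had the largest fold difference among the 5 members with a mean of at least 0.5 FPKM. It is a factor of the head organizer and of the intermediate mesoderm, from which the kidney forms, and mouse embryos without it lack anterior head structures. On hg19 its row spans chromosome 17, 35294772 to 35301915. It was at 0.512 FPKM under DAPT and 5.78 FPKM under ethanol, a ratio of 11.3 between the FPKM values themselves. With 0.1 FPKM added the ratio was 9.61, which is a log2 fold change of -3.26. Among all 14388 genes with a mean of at least 0.5 FPKM, 0.535% were lower by as much. The paper also reports LHX1 as lower with DAPT by qRT-PCR. LHX5, the closest relative of LHX1 and a forebrain factor in mouse, is on chromosome 12, 113900694 to 113909877. It was at 2.66 FPKM under DAPT and 1.49 FPKM under ethanol, with a log2 fold change of 0.80, which is inside 2-fold. Their order was therefore opposite under the treatments. LHX1 was 3.88 times the level of LHX5 with ethanol, and LHX5 was 5.20 times the level of LHX1 with DAPT. Together they summed to 3.17 FPKM under DAPT and 7.27 FPKM under ethanol.

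The pairs of relatives share much of their DNA sequence. The homeobox, the 180 coding bases of the homeodomain, was read from the canonical transcripts on GRCh37. Between ISL1 and ISL2 it was 87.2% identical, with 23 differing bases and 59 of 60 residues the same. The members of that pair lay on opposite sides of 0, and their homeoboxes are shown 5′ to 3′ with the bases that differ from the relative in capitals:
ISL1: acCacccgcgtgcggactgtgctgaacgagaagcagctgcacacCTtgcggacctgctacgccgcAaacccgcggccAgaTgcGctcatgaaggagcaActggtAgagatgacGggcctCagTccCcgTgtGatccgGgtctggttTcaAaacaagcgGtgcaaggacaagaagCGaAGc
ISL2: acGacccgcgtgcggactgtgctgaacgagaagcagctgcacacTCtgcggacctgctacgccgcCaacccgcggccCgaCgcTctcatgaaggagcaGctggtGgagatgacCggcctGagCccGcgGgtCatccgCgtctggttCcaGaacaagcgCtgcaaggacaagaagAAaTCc

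In ISL1 the homeobox lies at coding bases 541 to 720 and in ISL2 at 571 to 750, counted from the start codon. The longest stretch shared by the transcripts of ISL1 and ISL2 was 41 bases. In 3 other pairs the homeobox identity was 81.7% for LHX2 and LHX9, 77.8% for LMX1A and LMX1B, and 72.2% for LHX6 and LHX8. Their longest shared stretches were 33, 17 and 14 bases. The read length and how reads that fit more than 1 gene were handled are not stated in the labels or methods, so a division of reads between LHX1 and LHX5, or between ISL1 and ISL2, was not tested.

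Genes that share the settings in which LHX1 is known were lower in part. Of 13 genes of the head organizer and anterior endoderm, 6 were lower and none was higher, with a median of -0.24. They included FOXA2, at 0.370 FPKM under DAPT and 4.79 FPKM under ethanol, EOMES at 0.842 and 9.69 FPKM, and GSC at 0.194 and 1.45 FPKM. OTX2, a head factor of the same list, was at 19.8 FPKM under DAPT and 21.2 FPKM under ethanol. For the intermediate mesoderm and kidney, 5 of 12 genes were at 0.5 FPKM or more, of which EYA1 and EMX2 were higher, at 2.76 FPKM under DAPT and 0.36 FPKM under ethanol for EYA1. Markers of other cells moved in the direction of LHX1. All 7 endoderm markers were lower with DAPT, with a median of -3.38 and a summed level of 36.6 FPKM under DAPT and 501 FPKM under ethanol, and none was at 0. FOXA2 is counted in this list and in that of the head organizer. Of 6 pluripotency markers, 4 were lower, and they summed to 230.8 FPKM under DAPT and 620.5 FPKM under ethanol. The part of these cells in the LHX1 difference was not tested.

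ISL1 was the most abundant member with DAPT. It is a factor of the second heart field, of motor and sensory neurons and of the pancreas, and it has also been described in the amnion of primates. Its row spans chromosome 5, 50668571 to 50690563. It was at 12.1 FPKM under DAPT and 5.24 FPKM under ethanol, with a log2 fold change of 1.19. Of all genes with a mean of at least 0.5 FPKM, 3.68% were higher by as much. ISL1 is the only member whose locus overlaps another row, LOC642366, which was at 0.671 FPKM under DAPT and 0.309 FPKM under ethanol. ISL2, a motor neuron factor on chromosome 15, 76629147 to 76634816, was close to the bottom of the measured range. It was at 0.0525 FPKM under DAPT and 0.262 FPKM under ethanol, with a log2 fold change of -1.25. ISL1 was 20.0 times the level of ISL2 with ethanol and 230.1 times with DAPT, so ISL1 carried nearly all of the ISL mRNA under both treatments.

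The settings in which ISL1 is known differed from each other. Of 8 second heart field genes with a mean of at least 0.5 FPKM, 2 were higher and 3 were lower, with a median of -0.87. MEF2C, a cardiac and neural factor, was at 1.89 FPKM under DAPT and 0.634 FPKM under ethanol, and GATA4, a cardiac and endoderm factor, was at 2.39 and 12.4 FPKM. Below that level, NKX2-5, a cardiac homeobox factor, was lower, at 0.119 and 0.526 FPKM. Among 10 genes of amnion-type epithelium, 7 were higher and none was lower, with a median of 1.38. GABRP, a GABA-A receptor subunit of that epithelium, was at 200.9 FPKM under DAPT and 7.56 FPKM under ethanol. These 10 genes summed to 1119 FPKM under DAPT and 420.2 FPKM under ethanol, none was at 0, and their part in the ISL1 difference was not tested. BMP4 is counted as higher in both the second heart field and the amnion-type list. Of 16 motor and sensory neuron genes, 3 reached a mean of 0.5 FPKM. One of them, the motor neuron factor MNX1, was at 0.119 FPKM under DAPT and 1.41 FPKM under ethanol, and RUNX1 was at 10.5 and 2.99 FPKM. Of 6 more with means from 0.1 to 0.5 FPKM, 3 neurogenic factors were higher and none was lower. Of all 2574 genes in that range, 7.69% were higher and 10.9% were lower. NEUROD1 and NEUROG1 enter it through their DAPT values alone, so this count only describes. POU4F1, a sensory neuron factor, was at 0.772 FPKM under DAPT and 0.131 FPKM under ethanol, NEUROD1 was at 0.555 and 0.00384 FPKM, and NEUROG1 was at 0.564 FPKM under DAPT and listed at 0 under ethanol. NEUROG2, below that range, went the other way, at 0.0438 FPKM under DAPT and 0.105 FPKM under ethanol.

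LMX1A and LMX1B had the largest ratios of the higher members, at low levels. Both are factors of the roof plate and of midbrain dopaminergic progenitors, and LMX1B also patterns the dorsal limb and is mutated in nail-patella syndrome. LMX1A, on chromosome 1, 165171104 to 165325952, was at 0.781 FPKM under DAPT and 0.0461 FPKM under ethanol. Its log2 fold change was 2.59, and 0.233% of the 2574 genes between 0.1 and 0.5 FPKM were higher by as much. LMX1A enters that range through its DAPT value alone, so this share only describes. LMX1B, on chromosome 9, 129376722 to 129463311, was at 0.421 FPKM under DAPT and 0.0178 FPKM under ethanol, with a log2 fold change of 2.14. The ethanol values of both genes are under the 0.1 FPKM that was added, so the log2 fold changes are smaller than the ratios of the FPKM values themselves, which were 17.0 for LMX1A and 23.6 for LMX1B. In their pair LMX1A was the more abundant, 1.86 times LMX1B with DAPT and 2.58 times with ethanol. Of 13 genes of the roof plate, midbrain and dorsal limb, 9 were under a mean of 0.5 FPKM. Of the other 4, none was higher and BMP6 was lower, at 1.72 FPKM under DAPT and 10.7 FPKM under ethanol. In the range of LMX1A and LMX1B, from 0.1 to 0.5 FPKM, the list held 2 genes. One of these, WNT1, a signal of the midbrain boundary and roof plate, was higher, at 0.591 FPKM under DAPT and 0.0316 FPKM under ethanol. WNT1 enters that range through its DAPT value alone.

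**Figure D4:**
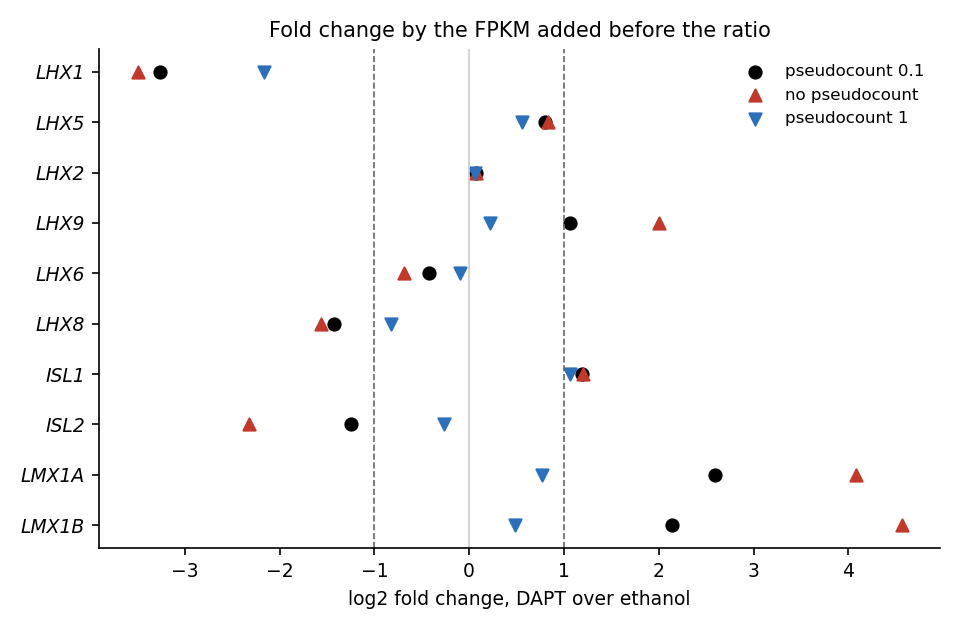
Log2 fold change of each member with 0.1, 0 or 1 FPKM added to both values, with dashed lines at 2-fold. LHX1 and ISL1 stay outside 2-fold under all 3, while LMX1A ranges from 0.77 to 4.08 and LMX1B from 0.48 to 4.56.

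LHX2 was the member that differed least. It is a factor of the eye field and forebrain and of hair follicle stem cells, and its row spans chromosome 9, 126773889 to 126795442. It was at 3.22 FPKM under DAPT and 3.06 FPKM under ethanol, with a log2 fold change of 0.07. Its relative LHX9, a factor of the mouse gonad on chromosome 1, 197881635 to 197899273, was at 0.226 FPKM under DAPT and 0.0564 FPKM under ethanol. The log2 fold change of LHX9 was 1.06, just past 2-fold, and 6.88% of the genes between 0.1 and 0.5 FPKM were higher by as much. LHX9 enters that range through its DAPT value alone, so this share only describes. LHX2 exceeded LHX9 by 14.2 times with DAPT and 54.2 times with ethanol, so the LHX2 level set the sum of the pair, 3.44 and 3.11 FPKM. Of 9 eye field and forebrain genes, 3 were higher and none was lower, with a median of 0.52. PAX6, which is required for eye formation, was at 2.57 FPKM under DAPT and 1.17 FPKM under ethanol. Of 4 gonad genes with a mean of at least 0.5 FPKM, 1 was higher and 1 was lower, and NR5A1, below that level, was higher at 0.345 and 0.118 FPKM. The higher gene, EMX2, is also counted as higher among the eye field and forebrain genes.

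LHX6 and LHX8 were both on the lower side of 0 with DAPT. In mouse, LHX6 acts in cortical interneurons, LHX8 in cholinergic neurons of the basal forebrain, and both in the oral mesenchyme that forms the teeth and palate. LHX8, on chromosome 1, 75594119 to 75627218, was at 0.661 FPKM under DAPT and 1.95 FPKM under ethanol, with a log2 fold change of -1.43. LHX6, on chromosome 9, 124964856 to 124991091, was at 0.133 FPKM under DAPT and 0.214 FPKM under ethanol, with a log2 fold change of -0.43. LHX8 was the more abundant of the pair under both treatments, 4.97 times LHX6 with DAPT. Of 6 ventral forebrain interneuron genes, 2 were higher and 1 was lower. DLX2 was at 1.70 FPKM under DAPT and 0.384 FPKM under ethanol, and GAD1, which makes the transmitter GABA, was at 4.08 and 9.40 FPKM. Of 9 oral and branchial arch genes, 4 were higher, among them BARX2 at 4.16 and 0.499 FPKM, and 1 was lower.

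The promoters of the members were searched for the core sequence bound by RBPJ, the DNA-binding partner of the Notch intracellular domain, since the treatment acts on Notch. RefSeq promoters on GRCh38.p14, of 300 bases each and mostly upstream of the start, were available for 8 members, all except LHX1 and LHX5. The letters TGGGAA, on either strand, occurred in LHX8, LHX9 and LMX1A, 3 of 8 members, and in 28.1% of the 27305 genes with an entry. A gene was counted where any of its entries held the letters. Of the 35116 entries taken singly, 24.0% held them. Another LHX8 entry held them 32 bases after its start. Windows of 30 bases around the match upstream of the start are shown on the strand of the gene, with the searched letters in capitals:
LHX8, 64 bases before the start, chr1:75128358-75128387, plus strand: caagagtaggcgTGGGAAggtggcgctctt
LMX1A, 107 bases before the start, chr1:165356805-165356834, minus strand: gcgcagccaggcTGGGAAagggagcaccac
LHX9, 49 bases before the start, chr1:197916013-197916042, plus strand: gcaccgcagtccTGGGAAaggcggcgggaa

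Of these 3 genes, LHX8 was lower and LMX1A and LHX9 were higher with DAPT. The extended letters GTGGGAA, which contain the core, occurred in LHX8 alone, 1 of 8 members, against 7.62% of the genes with an entry. A homeodomain core, TAATTA, occurred in none of the 8, against 5.95% of the genes with an entry. The matches describe letters in these windows and are not evidence of binding.

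The genes of the cofactors that LIM homeobox factors bind were expressed at higher levels than most members, and most were inside 2-fold. Among 6 cofactor genes none was higher and LDB2 was lower, at 6.16 FPKM under DAPT and 18.2 FPKM under ethanol. SSBP2 lay just inside the limit, at 12.5 and 6.22 FPKM, with a log2 fold change of 0.99. LDB1, the main adaptor of the LIM domains, was at 39.4 FPKM under DAPT and 27.8 FPKM under ethanol, inside 2-fold. SSBP3, which binds and stabilises LDB1, was at 20.5 and 20.1 FPKM. None of the 4 LIM-only genes was past 2-fold with 0.1 FPKM added, and their median log2 fold change was 0.74. LMO4 was at 16.2 FPKM under DAPT and 11.2 FPKM under ethanol, and LMO2 at 6.48 and 8.91 FPKM. LMO1, at 2.34 and 1.16 FPKM, and LMO3, at 1.05 and 0.481 FPKM, were past 2-fold before the addition. With it they lay just inside, at 0.95 and 0.99. The remaining LIM homeobox genes of the table were low, with LHX4 at 0.282 FPKM under DAPT and 0.313 FPKM under ethanol, and LHX3 listed at 0 with DAPT and at 0.0171 FPKM with ethanol.

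Across the 5 pairs of relatives, 3 had both members on the same side of 0 (LMX1A with LMX1B, LHX6 with LHX8, and LHX2 with LHX9). In the LHX1 and LHX5 pair and in the ISL1 and ISL2 pair, the members lay on opposite sides. The sums of the pairs differed in both directions. The LMX1 pair summed to 1.20 FPKM under DAPT and 0.0639 FPKM under ethanol, and the ISL pair to 12.1 and 5.50 FPKM. The LHX6 and LHX8 pair summed to 0.794 FPKM under DAPT and 2.16 FPKM under ethanol.

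Markers of other tissues in which members are known were also counted. Of 7 neuronal genes 2 were higher and none was lower, with TUBB3 at 129.9 FPKM under DAPT and 133.2 FPKM under ethanol. Of 3 more with means from 0.1 to 0.5 FPKM, DCX and ELAVL4 were higher. Both enter that range through their DAPT values alone, so this only describes. Of 5 cardiac muscle genes none was higher and MYL4 was lower, at 7.78 and 22.8 FPKM. Among the 7 surface ectoderm markers 3 were higher and none was lower, with TP63 at 3.88 and 0.546 FPKM. Of 6 Notch target genes with a mean of at least 0.5 FPKM, HEY1 was higher, at 9.37 FPKM under DAPT and 3.79 FPKM under ethanol. HEY2 was lower, at 2.58 and 5.85 FPKM. Inside 2-fold, HES1 was at 14.5 and 12.7 FPKM and NRARP at 2.75 and 4.11 FPKM. HES5, below that level, was at 0.0784 and 0.188 FPKM, inside 2-fold with 0.1 FPKM added. The paper reports HES5 and HEY2 as lower with DAPT.

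**Figure D5:**
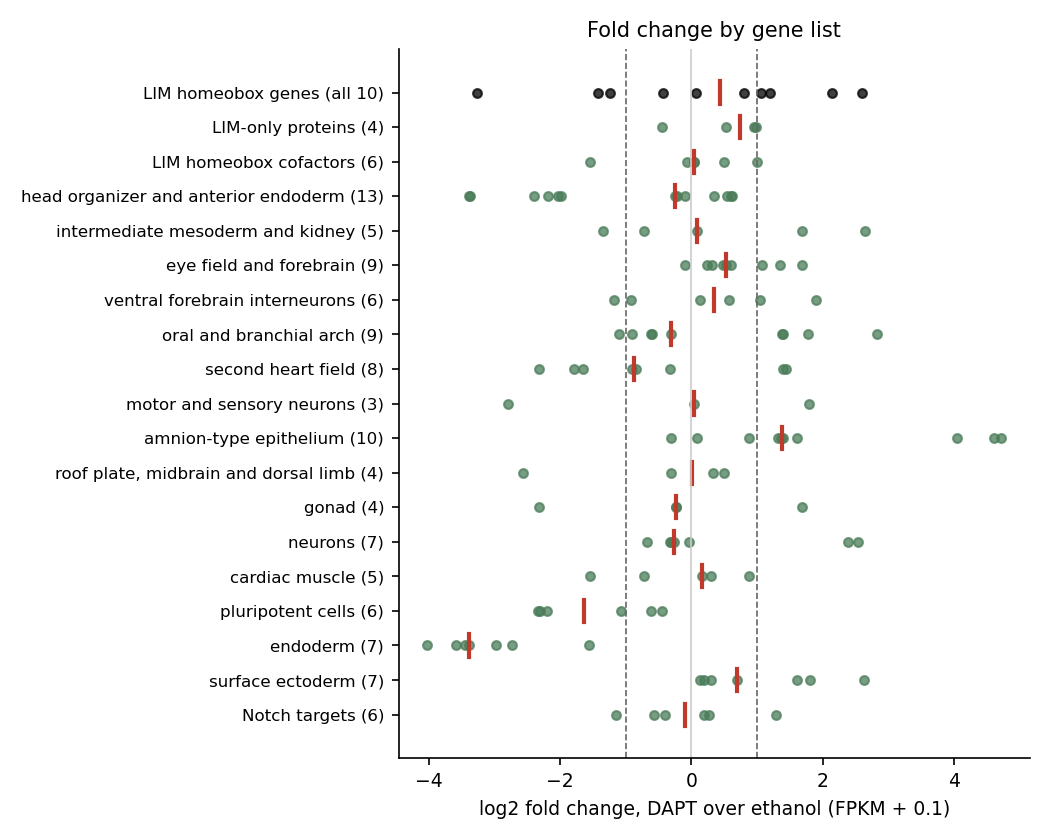
Log2 fold change (DAPT over ethanol, FPKM + 0.1) of the 10 LIM homeobox genes (black) and of the genes with a mean of at least 0.5 FPKM in each comparison list (green), with the number of genes in brackets, red bars at the medians and dashed lines at 2-fold. The members spread from -3.26 to 2.59, while the 4 LIM-only genes lie inside 2-fold and all 7 endoderm markers lie below -1.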

How the data were processed

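Total RNA of H1 cells at day 10 was made into stranded poly-A libraries and sequenced, 3 libraries with DAPT and 3 with ethanol. Per the labels, reads were mapped to hg19 with TopHat2 2.0.6, and per the paper's methods the authors computed abundance with Cufflinks. The FPKM values were computed by the authors and deposited as 1 value per gene and treatment over its libraries. The annotation, library scaling, strand setting and depth are not stated in the labels or methods. The table also holds the authors' fold changes, test statistics, p-values and q-values, which were not used here. Its 2 sheets name the treatments in opposite ways, with equal values in all 1417 shared rows.

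Log2 fold changes with a pseudocount of 0.1 FPKM were computed over all genes in Python 3.11.15 with pandas 2.3.3, and calls of 2-fold were tested on simulated data. Means of at least 0.5 FPKM defined the genes compared. Samples were grouped by the treatment label. The members and the 19 comparison lists were chosen with earlier results of these data known. Some genes are in more than 1 list and are counted in each, among them BMP4, EMX2, GATA4, FOXA2 and TFAP2A. The counts of different lists are therefore not separate results. All members are named. Of each list, up to 4 genes past 2-fold with the largest log2 fold change and up to 2 genes inside 2-fold with the highest mean could be named. LHX3, LHX4, LOC642366, LMO1, LMO3, SSBP2 and the list genes under 0.5 FPKM were added after their values were seen. Homeoboxes came from GENCODE transcripts on GRCh37, and promoters from RefSeq on GRCh38.p14. Alternatives were other pseudocounts, scalings, level filters and fold limits, and the tested genes alone. The results of some genes and sequences are not reported here.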

Additional observations from a re-analysis of the deposited data

How the results depend on the processing

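Over 9 alternative settings, 72 of 82 member values kept their side of the fold limit. The level filters and the restriction to tested genes alter neither a member's value nor the limit. Their values are in this count and could not have changed side. A pseudocount, a level filter or a fold limit cannot change a sign, so only the scalings to an equal upper quartile and to the median gene bear on direction, and no member changed sign under either. How many members were past 2-fold depended on the pseudocount. With 1 FPKM added, 1 member (ISL1) was higher and 1 (LHX1) was lower, the members' median log2 fold change was 0.136, and 5.87% of genes were past 2-fold, against 10.4% with 0.1 FPKM added. With a mean of at least 1 FPKM, which left 5 members, 1 was higher and the median was 0.0723. With a limit of 1.5-fold, 22.2% of genes were past it. With a limit of 3-fold, 2 members were higher, 1 was lower, and 4.75% of genes were past it. Over the 7 members that the authors' table marks as tested, the median was 0.795. No paired analysis was possible because the table holds 1 value per treatment, and for the same reason leaving out single libraries was not run. The unknown depth limits the members under 0.1 FPKM most, which were ISL2 with DAPT and LHX9, LMX1A and LMX1B with ethanol.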
